A study of Mus musculus with 4 samples.

Results

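Flavin monooxygenases and aldehyde oxidases are liver enzymes that oxidise drugs, diet components and metabolites beside the cytochrome P450 enzymes. The set described here holds 9 genes, chosen by symbol among the 50584 gene symbols of the count tables: the flavin monooxygenase genes Fmo1, Fmo2, Fmo4 and Fmo5, the aldehyde oxidase genes Aox1, Aox3 and Aox4, the related gene Xdh (xanthine dehydrogenase), and Mocos (molybdenum cofactor sulfurase). The rule takes them by name, and they were proposed with earlier results of these data known. Poly(A) RNA was sequenced from the livers of wild-type male mice aged 14 weeks on a chow diet. There were 2 DBA/2J and 2 C57BL/6J libraries, from separate mice according to the series' design text, and the comparison asked how liver mRNA differs between these inbred strains. No agent was given and no allele was engineered in either strain.

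Flavin monooxygenases sit in the endoplasmic reticulum and use FAD, NADPH and oxygen to add an oxygen atom to nitrogen or sulfur atoms of small molecules. Aldehyde oxidases and xanthine dehydrogenase are cytosolic enzymes that carry FAD, iron-sulfur clusters and a molybdenum cofactor. Aldehyde oxidases oxidise aldehydes and nitrogen-containing rings, and xanthine dehydrogenase makes uric acid from purines. Mocos adds the sulfur atom without which the cofactor of both is inactive. DBA/2 mice are known to be deficient in the aldehyde oxidase proteins that Aox3 and Aox4 encode.

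The libraries held 48096706 to 52520737 counts assigned to genes, and albumin took 5.91% to 6.82% of them. All 7 hepatocyte markers were abundant and 0 of the 7 were called between the strains, with a summed level of 89698 and 85380 CPM in DBA/2J and 98753 and 88968 CPM in C57BL/6J. At an unadjusted edgeR p below 0.05, 1 of the 7 was lower, and DESeq2 called 1 lower and limma-voom 0. CPM are counts scaled to library size, here after edgeR's TMM scaling. C57BL/6J replicate 1 stood apart in neutrophil markers, which summed to 6.09 CPM there and to 0.253 to 0.497 CPM in the other libraries. It also stood apart in the acute phase gene Saa1, chosen after its values were seen, at 1968 CPM against 35.9 to 138 CPM.

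Of the 9 genes, 8 passed the filter on low counts and were tested. In edgeR's quasi-likelihood test, with Benjamini-Hochberg adjustment over 15647 tested genes and a call at an adjusted p below 0.05, 3 of the 8 were higher in DBA/2J (Fmo1, Fmo2 and Fmo4) and 1 was lower (Aox3). Among all tested genes 18.2% were called, 9.29% higher and 8.87% lower. The median log2 difference (DBA/2J over C57BL/6J, as throughout) was 0.18 for the 8 genes and 0.01 for all tested genes. The libraries of the strains did not overlap in 6 of the 8 genes, against 63.8% of all tested genes. When either DBA/2J library was left out, 1 gene of the set was still called higher (Fmo2) and 1 lower (Aox3). In these fits 1.79% and 1.92% of all tested genes were called.

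**Figure D1:**
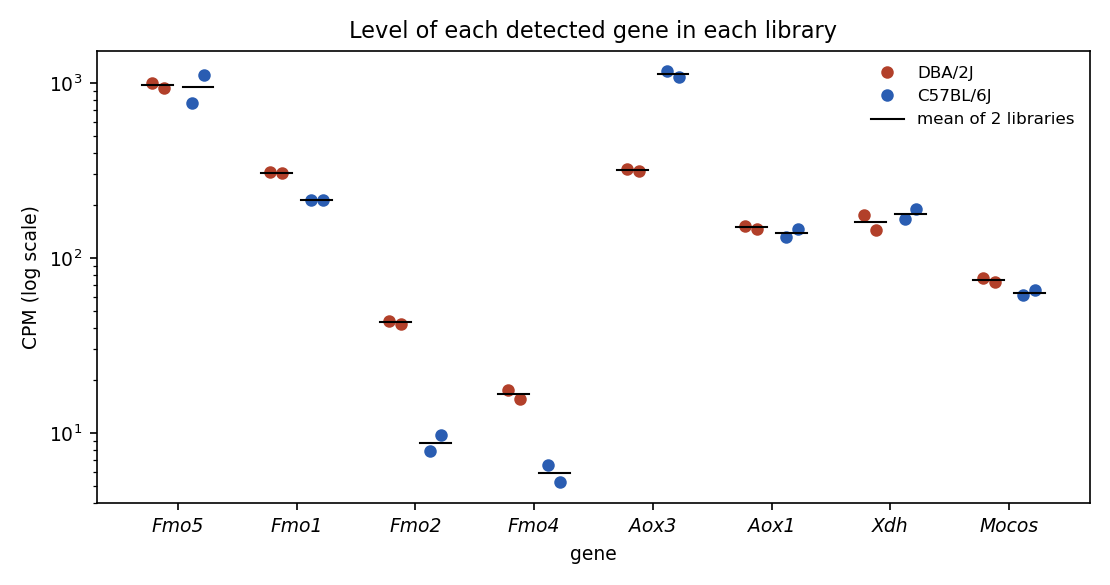
Level of the 8 detected genes in each library, in CPM on a log axis. Points are libraries (2 per strain) and bars are their means. Aox3 lies at 314 and 320.5 CPM in DBA/2J and at 1086 and 1165 CPM in C57BL/6J, and Fmo2 lies higher in both DBA/2J libraries.

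Aox3 encodes the principal aldehyde oxidase of mouse liver. It lies on chromosome 1 at 58113130 to 58200698, on the forward strand of GRCm38. There were 15468 and 17396 counts in the DBA/2J livers (replicates 1 and 2, in that order throughout) and 56818 and 54244 in the C57BL/6J livers. The DBA/2J libraries were close to each other and far below both C57BL/6J libraries. Means were 317 CPM ± 4.36 for DBA/2J and 1126 CPM ± 55.8 for C57BL/6J (SD, n = 2 each). Aox3 was 3.55-fold lower in DBA/2J, a log2 difference of -1.83 ± 0.10 (SE) with an edgeR adjusted p of 6.84e-04. With any library left out the log2 difference stayed between -1.88 and -1.78, and the edgeR adjusted p was at most 0.0313. The mean level of Aox3 in DBA/2J was 45.1 CPM per kilobase of exon, above that of 93.8% of tested genes in that strain. In C57BL/6J it was above that of 97.9%. The counts are summed over the whole gene, so they do not show whether the DBA/2J transcript is complete. The part in this difference of aligning DBA/2J reads to the C57BL/6J genome was not tested.

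Aox1, which encodes another liver aldehyde oxidase, lies just upstream of Aox3 at 58029931 to 58106413 on the same strand, and ends 6.72 kb before it. It had 7385 and 8129 counts in DBA/2J and 6403 and 7308 in C57BL/6J. The means were 149.95 CPM ± 4.34 and 139 CPM ± 10.6 (SD, n = 2 each), and the highest C57BL/6J library, at 146.4 CPM, almost reached the lowest DBA/2J library, at 146.9 CPM. The log2 difference of 0.11 ± 0.09 (SE) did not pass the test (edgeR adjusted p = 0.421). Whether the strain differences of Aox3 and Aox1 differ from each other was not tested.

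Aox4, which encodes the aldehyde oxidase of the Harderian gland and skin, follows Aox3 at 58210397 to 58268597. It had 0 counts in each of the 4 libraries. A count of 0 allows up to 3 counts, or 0.0542 to 0.0622 CPM in a library, for counting error only. Its exons overlap those of the predicted gene Gm15759, which also had 0 counts. Aox2, the last gene of the cluster and an enzyme of the nasal mucosa, had 2 and 7 counts in DBA/2J and 3 and 11 in C57BL/6J and did not pass the filter. Nearly all counts of the Aox cluster in these livers were those of Aox3 and Aox1.

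The bases before the start of each detected aldehyde oxidase gene are shown because Aox3 was called between the strains and its neighbour Aox1 was not. Aox4 is added as the undetected gene between Aox3 and Aox2. They are RefSeq sequences of GRCm38.p6, which is the C57BL/6J genome, so DBA/2J differences are not in them. Capitals mark CG dinucleotides, the usual sites of cytosine methylation, and the runs end before the first annotated base of the gene. They cover chr1:58029719-58029930, chr1:58112886-58113129 and chr1:58210147-58210396, on the forward strand.
Aox1: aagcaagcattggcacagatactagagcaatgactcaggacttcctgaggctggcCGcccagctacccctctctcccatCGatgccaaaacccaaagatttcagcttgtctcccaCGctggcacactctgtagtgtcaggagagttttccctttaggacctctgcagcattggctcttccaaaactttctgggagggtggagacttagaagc
Aox3: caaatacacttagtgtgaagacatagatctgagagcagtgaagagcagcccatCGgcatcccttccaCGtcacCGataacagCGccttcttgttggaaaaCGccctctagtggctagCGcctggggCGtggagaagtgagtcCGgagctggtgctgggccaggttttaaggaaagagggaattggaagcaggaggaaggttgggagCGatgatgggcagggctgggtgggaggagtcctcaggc
Aox4: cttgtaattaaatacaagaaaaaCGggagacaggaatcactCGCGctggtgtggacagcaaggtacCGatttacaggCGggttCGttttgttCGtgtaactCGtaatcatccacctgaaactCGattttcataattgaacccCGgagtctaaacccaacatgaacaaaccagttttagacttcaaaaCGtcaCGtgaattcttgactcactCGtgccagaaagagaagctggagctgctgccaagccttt
CG was counted in the 250 bases before the RefSeq start. This window is longer than the run shown for Aox1 (212 bases, 3 CG) and for Aox3 (244 bases, 9 CG). It held CG 5 times for Aox1, 9 times for Aox3 and 13 times for Aox4. At least as many CG occurred in 55.6%, 40.3% and 31.5% of the 32851 RefSeq windows of the same length, whose median was 6. Searched on both strands, the TATA box (TATAAA) was in none of the 3 windows, and 12.4% of all windows hold it. CCAAT occurred 2 times for Aox1 and 1 time for Aox3 (33.8% of windows hold it). GGGCGG occurred 2 times for Aox1 and was not in the Aox3 window (32.7% of windows). GCGTG, the core letters of aryl hydrocarbon receptor sites, occurred 1 time in each of Aox1 and Aox3 (28.2% of windows). The matches found did not overlap each other. These matches describe letters only, and no binding or methylation was measured.

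Per kilobase of exon, the level of Aox3 over that of Aox1 was 2.59 and 2.64 in the DBA/2J libraries and 11.0 and 9.17 in the C57BL/6J libraries. Aox3 made up 72.1% and 72.6% of the summed Aox level in DBA/2J, and 91.6% and 90.2% in C57BL/6J. The summed level was 63.2 and 61.6 CPM per kilobase in DBA/2J against 181 and 171 CPM per kilobase in C57BL/6J. In DBA/2J the summed level was lower in both libraries, and a larger part of it came from Aox1. With the longest coding transcript in place of all annotated exons, the ratio of Aox3 to Aox1 was 2.03 in DBA/2J and 7.82 in C57BL/6J. With bulk RNA, fewer cells of a type and less RNA per cell cannot be told apart.

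**Figure D2:**
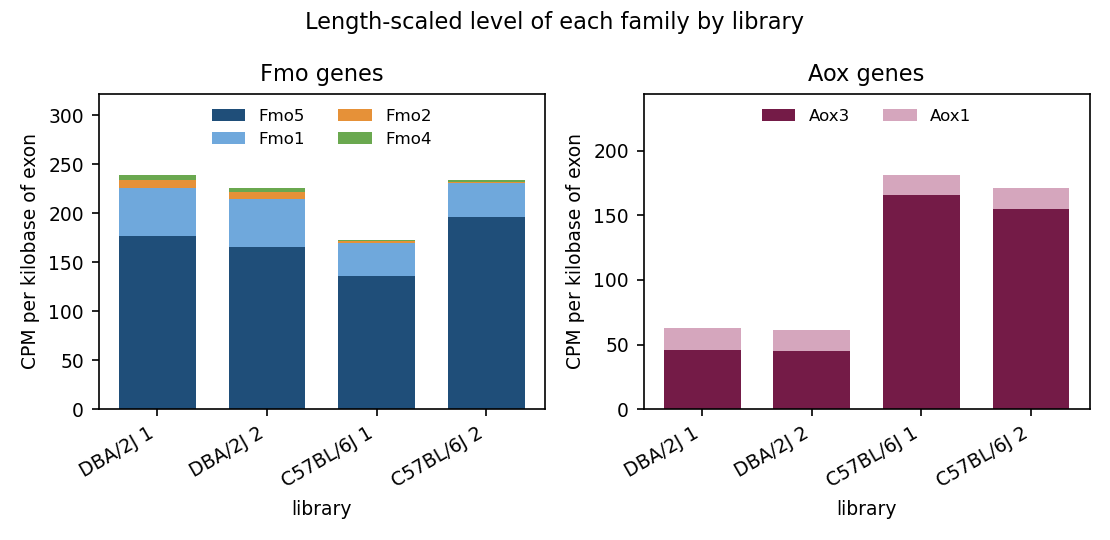
Summed level of the Fmo genes (left) and the Aox genes (right) in each library, in CPM per kilobase of exon, as stacked bars from 0. The Aox bars are 63.2 and 61.6 in DBA/2J and 181 and 171 in C57BL/6J, while the Fmo bars of the strains overlap with this length.

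Xdh, the enzyme that turns hypoxanthine and xanthine into uric acid, lies on chromosome 17 at 73883908 to 73950182 (reverse strand). Its counts were 8490 and 8024 in DBA/2J and 8101 and 9478 in C57BL/6J. The libraries of the strains overlapped, with means of 160.5 CPM ± 21.9 in DBA/2J and 178 CPM ± 16.7 in C57BL/6J (SD, n = 2 each). The log2 difference was -0.15 ± 0.12 (SE; edgeR adjusted p = 0.44).

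Mocos, on chromosome 18 at 24653691 to 24701556 (forward strand), had 3713 and 4037 counts in DBA/2J and 2983 and 3261 in C57BL/6J. Both DBA/2J libraries, at 76.9 and 72.9 CPM, were above both C57BL/6J libraries, at 61.2 and 65.3 CPM. The log2 difference of 0.24 ± 0.08 (SE) did not pass the test (edgeR adjusted p = 0.0949). It passed with scaling by library totals (0.32, edgeR adjusted p = 0.0468), which moved the median of all genes by 0.08. It also passed without C57BL/6J replicate 2 (0.29). In that fit the spread comes from the DBA/2J pair alone, and more of all genes were called than in the main fit.

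The flavin monooxygenase genes Fmo4, Fmo1 and Fmo2 lie in that order on chromosome 1, on the reverse strand, between 162793188 and 162898726. All 3 were higher in DBA/2J. Fmo2, known as the main form of the lung, had the largest difference of the set. It had 2118 and 2314 counts in the DBA/2J livers, compared with 383 and 485 in the C57BL/6J livers. The DBA/2J libraries stood far above both C57BL/6J libraries, with a mean of 42.8 CPM ± 1.47 against 8.78 CPM ± 1.31 (SD, n = 2 each). Fmo2 was 4.88-fold higher in DBA/2J, a log2 difference of 2.29 ± 0.13 (SE) with an edgeR adjusted p of 6.84e-04. With any library left out the log2 difference stayed between 2.14 and 2.45 and the edgeR adjusted p was at most 0.0236.

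The bases before the outermost RefSeq start of Fmo2, the gene with the largest difference, cover chr1:162898759-162899008 (GRCm38.p6, reverse strand, capitals mark CG).
Fmo2: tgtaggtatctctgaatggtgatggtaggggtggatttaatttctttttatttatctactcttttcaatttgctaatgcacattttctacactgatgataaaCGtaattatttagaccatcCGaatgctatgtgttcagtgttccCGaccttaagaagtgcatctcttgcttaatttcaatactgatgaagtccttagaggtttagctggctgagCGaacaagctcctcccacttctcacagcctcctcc
CG occurred 4 times in this window, and at least as many occurred in 62.2% of all windows. It held none of the motifs searched, which besides those above were AGGTCA (an element of nuclear receptor sites, in 14.0% of windows), TTCNNNGAA (a STAT site, in 7.02%) and TGACNNNGC (the core of antioxidant response elements, in 10.2%). A window before a second RefSeq start of Fmo2 and the window of Fmo4 each held AGGTCA 1 time. RefSeq windows were found for 6 of the 9 genes.

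Fmo4, a less studied form, lies at 162793188 to 162813972 and had 848 and 864 counts in the DBA/2J livers, compared with 318 and 261 in the C57BL/6J livers. The strains did not overlap, at 17.6 and 15.6 CPM against 6.52 and 5.23 CPM. Fmo4 was higher by 1.50 ± 0.16 (SE) on the log2 scale (edgeR adjusted p = 0.00407). The call was lost when DBA/2J replicate 1 was left out (1.39, edgeR adjusted p = 0.0836) and when replicate 2 was (1.58, edgeR adjusted p = 0.0609).

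Fmo1, which oxidises many drugs and also makes taurine from hypotaurine, lies between them at 162829561 to 162866610. It had 14972 and 16894 counts in DBA/2J and 10391 and 10654 in C57BL/6J. Replicates differed little, with means of 308 CPM ± 3.51 and 213 CPM ± 0.186 (SD, n = 2 each). Fmo1 was 1.44-fold higher in DBA/2J, a log2 difference of 0.53 ± 0.08 (SE; edgeR adjusted p = 0.0113). This call too was lost when DBA/2J replicate 1 was left out (0.50, edgeR adjusted p = 0.154) and when replicate 2 was (0.54, edgeR adjusted p = 0.127).

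Fmo6 had 0 and 4 counts in DBA/2J and 0 in both C57BL/6J libraries, and Fmo9 had 0 counts in every library.

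Fmo5, a form that inserts oxygen beside carbonyl groups, lies apart from the cluster on chromosome 3 at 97628804 to 97655282 (forward strand). Its counts were 48403 and 51984 in DBA/2J and 37645 and 55675 in C57BL/6J. The DBA/2J libraries fell between the C57BL/6J libraries, with a mean of 971 CPM ± 45.0 against 944 CPM ± 243 (SD, n = 2 each). The log2 difference was 0.04 ± 0.19 (SE; edgeR adjusted p = 0.897), and it became -0.20 when C57BL/6J replicate 1 was left out and 0.33 when replicate 2 was. The low C57BL/6J library, replicate 1 at 772 CPM, was the one with the high Saa1 and neutrophil marker levels. Their part in the Fmo5 level was not tested.

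**Figure D3:**
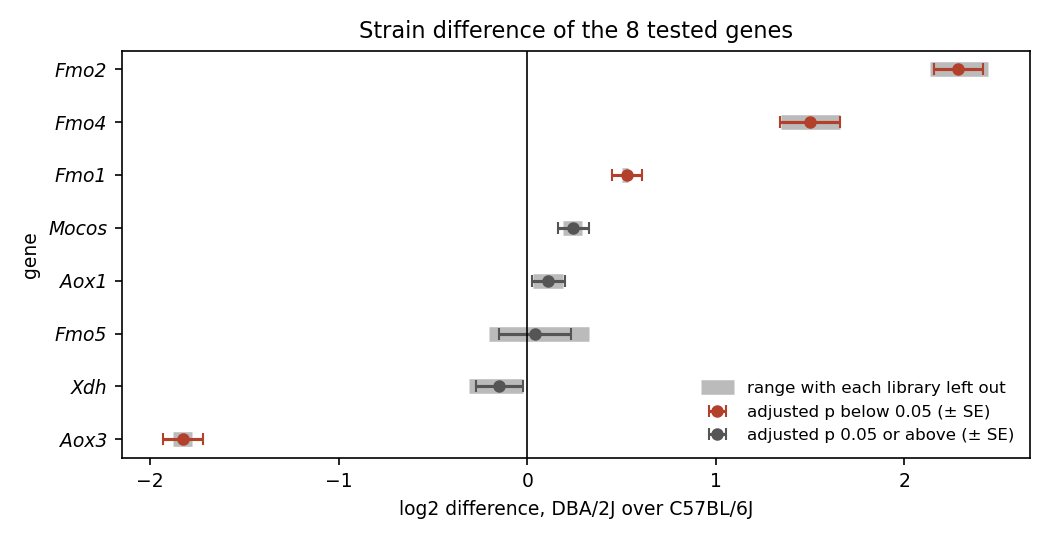
Log2 difference of the 8 tested genes, DBA/2J over C57BL/6J, with the edgeR estimate as a point, its standard error as a bar, and the range over fits with each library left out in grey. Fmo2 (2.29), Fmo4 (1.50) and Fmo1 (0.53) lie above 0 and Aox3 (-1.83) below, and the grey range of Fmo5 crosses 0.

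Per kilobase of exon, Fmo5 was the highest of the 9 genes in DBA/2J at 171 CPM, followed by Fmo1 (48.8), Aox3 (45.1), Xdh (35.0), Mocos (26.0), Aox1 (17.3), Fmo2 (7.64) and Fmo4 (4.48). The ranges of neighbours in this order did not overlap in DBA/2J. In C57BL/6J the order was Fmo5 (166), Aox3 (160.1), Xdh (38.8), Fmo1 (33.8), Mocos (21.9), Aox1 (16.0), Fmo4 (1.58) and Fmo2 (1.57). There the ranges of Fmo5 and Aox3 overlapped, as did those of Fmo4 and Fmo2. Aox3 stood beside Fmo5 in C57BL/6J and far below it in DBA/2J. Annotated exon length includes rare exons, and with the longest coding transcript Aox3 came first in C57BL/6J, Fmo1 came before Xdh there, and Aox1 came before Mocos in both strains.

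Within the Fmo genes, Fmo5 made up 74.1% and 73.4% of the summed level per kilobase in DBA/2J and 78.6% and 84.2% in C57BL/6J. Fmo2 made up 3.28% and 3.30% in DBA/2J but 0.809% and 0.742% in C57BL/6J. The summed Fmo level was 238.5 and 226 CPM per kilobase in DBA/2J and 173 and 233 in C57BL/6J, so the strains overlapped. This depended on the length used, above all on that of Fmo1 (6304 bases of annotated exon and 2388 bases in its longest coding transcript). With the longest coding transcripts, a choice made after seeing the data, the sums were 340.2 and 325 CPM per kilobase in DBA/2J and 242 and 308 in C57BL/6J and did not overlap. The share of Fmo5 was then 56.7% and 55.7% in DBA/2J and 61.3% and 69.6% in C57BL/6J. Both shares of Fmo2 in DBA/2J were above both in C57BL/6J with either length.

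Markers of other cell types were set beside these results. All 8 stellate cell and fibroblast markers had a positive log2 difference, 1 of them called (Reln, 1.30, edgeR adjusted p = 0.00453), and they summed to 232 and 279.6 CPM in DBA/2J against 190.1 and 134 CPM in C57BL/6J. Sinusoidal endothelial markers summed to 159.9 and 191 CPM against 175 and 141 CPM, with 1 of 7 called higher (Stab2, 0.40) and 1 lower (Lyve1, -1.16). Kupffer cell markers summed to 148 and 153 CPM against 167 and 130.02 CPM, with 1 of 7 called, Marco (-2.97). Of the 7, 4 had a positive log2 difference, and the median was 0.004. Marco had 24 and 43 counts in DBA/2J and 365 and 133 in C57BL/6J, so its C57BL/6J libraries were far apart. Cholangiocyte markers summed to 10.5 and 10.2 CPM against 15.0 and 9.51 CPM, with 0 of 5 called in edgeR, DESeq2 or limma-voom and 0 at an unadjusted edgeR p below 0.05. Red cell markers summed to 314 and 271 CPM against 156 and 195 CPM, with 1 of 3 called, Alas2 (0.93). Most of this sum was Alas2, at 259 and 221 CPM against 109 and 143 CPM. The globin genes Hbb-bt (-0.31, edgeR adjusted p = 0.239) and Hbb-bs (0.18, edgeR adjusted p = 0.218) were not called. The calls of Reln, Stab2, Lyve1, Marco and Alas2 did not hold when either DBA/2J library was left out. Lymphocyte markers summed to at most 1.52 CPM. None of these marker genes was at 0 in all libraries. Their part in the levels of Fmo2, Fmo4 and Aox3 was not tested.

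Among hepatocyte zone markers, 2 of 7 pericentral genes were called lower in DBA/2J, Glul (-0.46) and Oat (-0.96), and 1 of 6 periportal genes, Ctsc (-0.78). The log2 difference was positive in 2 of the 7 pericentral genes (median -0.23) and in 5 of the 6 periportal genes (median 0.23). The calls of Glul, Oat and Ctsc did not hold when either DBA/2J library was left out. The pericentral list summed to 10098 and 8817 CPM in DBA/2J and 10541 and 10276 CPM in C57BL/6J, and the periportal list to 4151 and 3804 against 2799.6 and 3476 CPM. Their part in the members' differences was not tested.

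The genes that supply cofactors to these enzymes mostly did not pass the test. Of 8 genes for molybdenum cofactor synthesis and other molybdenum enzymes, 0 were called in edgeR, with a median log2 difference of -0.08. DESeq2 and limma-voom also called 0 of them, and at an unadjusted edgeR p below 0.05 there was 1 higher and 1 lower. Those with the lowest adjusted p were Marc2, a mitochondrial amidoxime-reducing enzyme (-0.28, edgeR adjusted p = 0.0987), and Mocs1, which starts cofactor synthesis (0.27, edgeR adjusted p = 0.126). Of 5 genes for riboflavin uptake and FAD synthesis, 1 was higher and 0 were lower. This was Rfk, riboflavin kinase, which makes FMN. It had 3819 and 4237 counts in the DBA/2J livers, compared with 2272 and 2377 in the C57BL/6J livers, a log2 difference of 0.72 (edgeR adjusted p = 0.00407), and the call did not hold when either DBA/2J library was left out (highest edgeR adjusted p 0.0916).

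Aldehyde oxidases also act on metabolites of nicotinamide. Of 7 genes for nicotinamide methylation and NAD synthesis, 3 were lower in DBA/2J and 0 were higher, with a median log2 difference of -0.21. Nnmt makes N-methylnicotinamide, which aldehyde oxidases turn into pyridones. It had 529 and 376 counts in the DBA/2J livers, compared with 8003 and 8366 in the C57BL/6J livers, a log2 difference of -4.23 (edgeR adjusted p = 6.7e-04). Nmrk1, a nicotinamide riboside kinase, had 327 and 341 counts against 1402 and 1573 and stood at -2.22 (edgeR adjusted p = 5.76e-04). In both genes the strains were far apart, and both calls held with any library left out (edgeR adjusted p up to 0.00716 and 0.0236). Nampt, which recycles nicotinamide into NAD, stood at -0.49 (edgeR adjusted p = 0.0133) and did not hold its call when either DBA/2J library was left out.

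Of 9 genes for retinal and retinoic acid metabolism, in which aldehyde oxidases can also act on retinal, 3 were higher in DBA/2J and 0 were lower, with a median of 0.27. Aldh1a1, the main retinal dehydrogenase of liver, had 99193 and 108538 counts in the DBA/2J livers, compared with 58356 and 71910 in the C57BL/6J livers (0.61, edgeR adjusted p = 0.0449). Aldh1a3, another retinal dehydrogenase, had 75 and 88 counts against 15 and 19 (2.18, edgeR adjusted p = 0.0102). Cyp26a1, which breaks down retinoic acid, had 914 and 6533 counts in the DBA/2J livers, compared with 299 and 399 in the C57BL/6J livers (3.28, edgeR adjusted p = 0.0466). Its DBA/2J libraries were far apart. The Cyp26a1 call was lost without DBA/2J replicate 2 (edgeR adjusted p = 0.0774), that of Aldh1a3 when either DBA/2J library was left out (highest edgeR adjusted p 0.116), and that of Aldh1a1 when either of these or C57BL/6J replicate 1 was (highest edgeR adjusted p 0.283).

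Around Xdh in purine breakdown and salvage, 3 of 13 tested genes were higher and 2 were lower, with a median of 0.22. Nt5e, the ectonucleotidase that makes adenosine, had 2619 and 2105 counts in the DBA/2J livers, compared with 339 and 264 in the C57BL/6J livers (2.91, edgeR adjusted p = 0.00164), a call that held with any library left out. The nucleoside phosphorylase genes Pnp2 and Pnp stood at 2.61 and -0.46. They are close copies of each other, and how reads were split between them is uncertain. Urad, which acts after uric acid in the same route, was higher (0.54, edgeR adjusted p = 0.0409), and Hprt, which salvages hypoxanthine before Xdh can use it, was lower (-0.38, edgeR adjusted p = 0.0408). The calls of Pnp2, Pnp, Urad and Hprt did not hold when either DBA/2J library was left out. Uox, which degrades uric acid, stood at 0.22 (edgeR adjusted p = 0.368). Allc had 0 counts in every library.

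Of 3 tested taurine synthesis genes, which supply the hypotaurine that Fmo1 oxidises, 0 were called in edgeR, DESeq2 or limma-voom, and 0 had an unadjusted edgeR p below 0.05. Ado, which makes hypotaurine from cysteamine, stood at 0.16 (edgeR adjusted p = 0.319), and Cdo1, which oxidises cysteine, at -0.12 (edgeR adjusted p = 0.583).

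**Figure D4:**
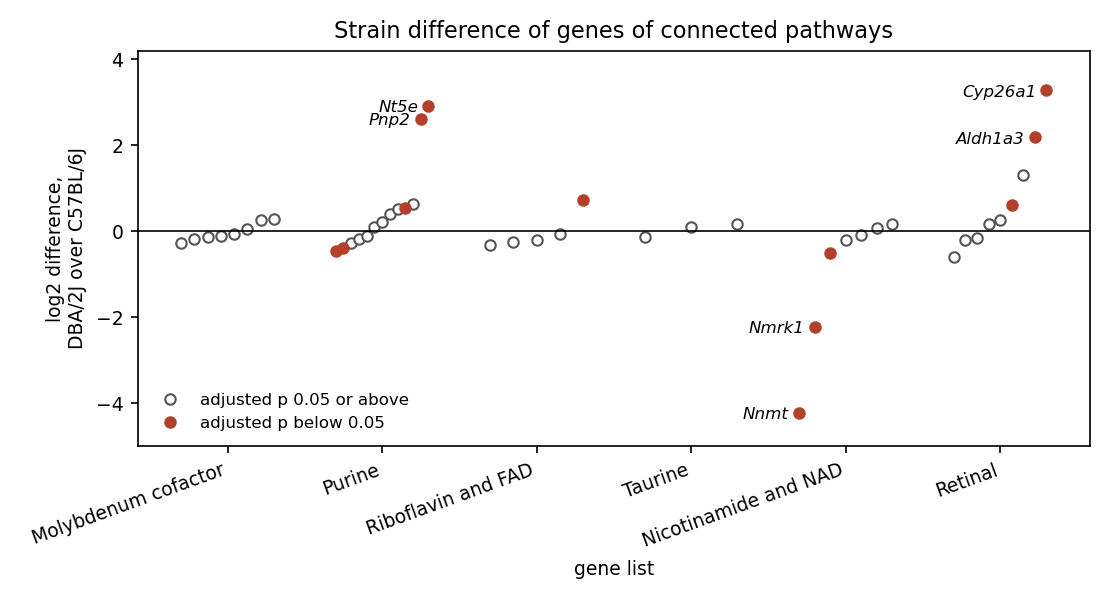
Log2 difference, DBA/2J over C57BL/6J, of each tested gene of 6 gene lists around these enzymes; filled points have an edgeR adjusted p below 0.05 and those beyond 2 in size are labelled. Nnmt (-4.23) and Nmrk1 (-2.22) lie lowest, Cyp26a1 (3.28) and Nt5e (2.91) highest, and 0 molybdenum cofactor genes are filled.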

How the data were processed

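Liver poly(A) RNA of 2 DBA/2J and 2 C57BL/6J mice was read as single-end reads of 100 bases, per the labels' protocols. The deposited values are raw counts of reads per gene symbol. Per the file headers, the authors made them with featureCounts 2.0.1 on exons of Ensembl release 88 (GRCm38) with the paired-end option and no option for strand, reads with several alignments or overlapping genes; the submitters' processing notes name STAR 2.4.0g1 and featureCounts 1.5.2. Both strains were aligned to a build derived from C57BL/6J, so DBA/2J reads that differ from it can be lost; how far this lowers DBA/2J counts was not tested. Of all 100-base windows of GENCODE M21 transcripts, 5.34% for Fmo1, 2.76% for Aox4 and 2.34% for Xdh, and none for the other 6 genes, occur in transcripts of another symbol. Exons of Aox4 overlap another symbol.

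Counts were tested with edgeR 4.0.16 (R 4.3.3), by the quasi-likelihood F test in its edgeR 4 form, with TMM scaling, filterByExpr at a minimum count of 10 (15647 genes left) and strain as the sole term, adjusted by Benjamini-Hochberg. Standard errors come from the F statistic. The fit was tested on simulated data. Where the simulated spread differed gene by gene, more of its calls were false than the adjusted threshold of 0.05 allows, and most differences of about the size of that of Fmo1 were missed. Alternatives were DESeq2 1.42.0, limma-voom (limma 3.58.1), other scalings and filters, the older edgeR form, the replicate number as a block and leaving out each library. Level between genes is CPM per kilobase of annotated exon. Lists were described by counts and medians, with no set test.

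The members and the lists were chosen with earlier results of these data known. Named genes are all members; every called gene of a pathway list, or its 2 tested genes with the lowest adjusted p; up to 2 genes per marker or sex-biased list; called genes starting within 500 kb of a member, clone and predicted names aside; and the 5 genes closest in pattern to the member with the largest difference. Further genes are named for their role after their values were seen. With 2 libraries per strain an exact permutation test cannot go below p = 0.333. A result on an item withheld for evaluation is not reported here.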

Additional observations from a re-analysis of the deposited data

How the results depend on the processing

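Each of the 8 tested genes was refitted under 12 alternatives, which gave 96 values. Of these, 88 kept the direction and the side of the threshold. Fmo2 and Aox3 were called under all 12, with log2 differences from 2.14 to 2.45 and from -1.88 to -1.78 when a library was left out. Those ranges were 0.50 to 0.54 for Fmo1 and 1.34 to 1.66 for Fmo4, whose calls did not hold when either DBA/2J library was left out. The range was 0.19 to 0.29 for Mocos, which was called without C57BL/6J replicate 2 and also with library totals (0.32). Fmo5 changed sign when DBA/2J replicate 1 (-0.02) or C57BL/6J replicate 1 (-0.20) was left out, with a range of -0.20 to 0.33, and was called under none. With 1 library left in a strain, the spread comes from the pair of the other strain alone. The lone library is then assumed to vary likewise.

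The number of members called higher was 3 of 8 tested, and 4 with scaling by library totals. It fell when either DBA/2J library was left out. Over the pathway lists together, 7 genes were higher and 5 lower. With no filter on low counts these were 4 and 3, and with a library left out 1 to 11 were higher and 2 to 9 lower. Among genes within 500 kb of the members, 5 were higher and 2 lower. They were 3 and 1 with no filter, 3 and 1 with at least 10 counts in every library, and with a library left out 0 to 6 higher and 0 to 3 lower. Over all genes, 2842 of 15647 were called in the main fit and 1516 of 25810 with no filter. With at least 10 counts in every library, 2390 of 13985 were called. In the pathway lists, among the nearby genes and over all genes, fewer were called with either DBA/2J library left out. More were called with either C57BL/6J library left out. The cause of these changes was not tested.

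The replicate numbers of the titles paired the samples neither by label nor by data (correlation of same-number deviations across genes 0.02). With the replicate block, Fmo2, Fmo4, Fmo1 and Aox3 stood at 2.29, 1.50, 0.53 and -1.83 and were still called; the number of calls over all genes was 2395 against 2842. The depth was like in all libraries and limits Aox4, Aox2, Fmo6 and Fmo9.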

Other observations

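Many flavin monooxygenase and aldehyde oxidase genes are known to differ between male and female livers, so lists of sex-biased liver genes were set beside them. Of 8 male-biased genes, 1 was higher in DBA/2J (Slco1a1, 0.42) and 2 were lower in edgeR's test. The lower genes were Mup20 (-1.83, edgeR adjusted p = 0.0156), a urinary pheromone protein, and Ugt2b38 (-2.18, edgeR adjusted p = 0.00278), a glucuronosyltransferase. Mup20 and Ugt2b38 belong to families of close copies that can share reads. Shared sequence with other genes was examined neither for these nor for the female-biased genes named next. Of 7 tested female-biased genes, 3 were higher and 0 lower. Cyp3a41a had 213 and 407 counts in the DBA/2J livers, compared with 3 and 6 in the C57BL/6J livers (5.98, edgeR adjusted p = 0.002). Hao2 had 22 and 22 counts against 3 and 2 (3.01, edgeR adjusted p = 0.0166), and Cyp2a4 stood at 1.85 (edgeR adjusted p = 0.0275). The 12 female-biased genes summed to at most 19.0 CPM in any library. The calls of Cyp3a41a and Ugt2b38 held with any library left out, and the others were lost without either DBA/2J library. That of Slco1a1 was also lost without C57BL/6J replicate 2.

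Genes starting within 500 kb of the members were listed, and 41 such genes were tested. At the 5 loci together, 5 passed the test upward and 2 downward. The share passing at each locus lay between 0% and 28.6%, beside 18.2% of all tested genes. Whether any locus departs from that background share was not tested. Around the Fmo cluster 2 of 7 tested genes were higher in DBA/2J and 0 lower. They were Prrc2c (0.52, edgeR adjusted p = 0.0127) and Myoc, with 30 and 26 counts against 0 and 2, a ratio of 26.7 after scaling to library size (95% counting interval 7.05 to 226). Around the Aox cluster 0 of 12 were higher and 2 lower, the respiratory chain gene Ndufb3 (-0.76, edgeR adjusted p = 0.00788) and a predicted gene. Around Fmo5 1 of 9 was higher, the receptor gene Notch2 (0.66, edgeR adjusted p = 0.00839). Around Mocos 2 of 7 were higher, Galnt1 (0.42, edgeR adjusted p = 0.0258) and a predicted gene, and around Xdh 0 of 6 were called in edgeR, DESeq2 or limma-voom, with 0 at an unadjusted edgeR p below 0.05. None of these calls held without either DBA/2J library.

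By the distance between log2 CPM values centred on their mean over the 4 libraries, the genes most like Fmo2 were Hsd3b2 (distance 0.06), Fam213b (0.08), Adam11 (0.14), Mup2 (0.15) and Mtmr7 (0.18), among the 9401 genes that averaged 5 CPM or more. Their log2 differences were 2.16 or more. Mup2 can share reads with other Mup copies, and shared sequence was not examined for any of the genes listed here. With 4 libraries such likeness rests almost wholly on the difference between the strains.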
